A study of Mus musculus with 38 samples.

Results

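Binding of c-Fos, mapped with the antibody sc7202, was compared between cortical neurons depolarised with KCl and neurons that were left silenced. The comparison rests on 4 of the 38 samples of the series, which are the KCl library and the unstimulated library of biological samples 3 and 4. These biological samples were used as 2 cultures, and each KCl list was compared with the unstimulated list of the same culture. A KCl peak was called gained when it shared no base with an unstimulated sc7202 peak of its culture, and kept otherwise. An unstimulated peak was called kept when it shared at least 1 bp with a KCl peak of its culture, and lost otherwise.

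c-Fos is the product of an immediate early gene, transcribed within minutes of calcium entry into a neuron. It cannot bind DNA stably alone and pairs with a Jun protein to form AP-1, a basic leucine zipper dimer that binds a short palindromic motif, mostly at enhancers and less often at promoters. Acetylation of histone H3 at lysine 27 (H3K27ac) marks active enhancers and promoters. Monomethylation of histone H3 at lysine 4 (H3K4me1) marks enhancers whether or not they are active, and CBP is an acetyltransferase that deposits H3K27ac.

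The neurons were prepared from cortices of C57BL/6 mouse embryos at day 16.5 and used at 7 days in vitro. Cultures of both conditions had been silenced overnight with 1 µM TTX, which blocks voltage-gated sodium channels, and 100 µM DL-AP5, which blocks NMDA receptors. KCl cultures were then depolarised for 2 h, at a concentration that the labels do not give, while unstimulated cultures stayed silenced. H3K27ac came from biological samples 1 and 2, merged by the authors into 1 list per condition, so it was not measured in the cultures in which c-Fos was mapped. The lists hold peaks and no reads. The depth of each library is therefore unknown, so unequal depth may be part of any difference in list length. In bulk material, more cells with bound c-Fos and more binding per cell cannot be told apart. All positions are those of genome build mm9.

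Depolarised neurons had many more c-Fos peaks than silenced ones. In biological sample 3, the KCl list held 28885 peaks and the unstimulated list 1770, a ratio of 16.3. In biological sample 4, the KCl list held 16270 peaks and the unstimulated list 557, a ratio of 29.2. Both KCl lists were longer than both unstimulated lists, with a mean of 22577.5 ± 8920 peaks after KCl and 1163.5 ± 858 without stimulation (SD, n = 2 cultures each). The mean difference on the log2 scale was 4.45, with 4.03 in biological sample 3 and 4.87 in biological sample 4. An exact two-sided permutation test of the 4 library labels gave p = 0.333, the smallest value that 2 against 2 libraries allow, and the exact sign-flip test with the culture as a block gave p = 0.5, the smallest that 2 pairs allow. Peaks covered 19.9 Mb and 12.2 Mb of the genome in the KCl lists of biological samples 3 and 4, and 1.02 Mb and 0.163 Mb in the unstimulated lists.

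The increase was larger with sc7202 than with the other c-Fos antibody, sc52, in both cultures. The log2 difference in peak number was 1.42 larger in biological sample 3 and 3.02 larger in biological sample 4 (mean 2.22, exact permutation test of the per-culture changes, p = 0.333, n = 2 against 2, the smallest possible). Against FosB, mapped in the same cultures, the sc7202 difference was larger by 2.66 and 3.61 (mean 3.13, exact permutation p = 0.333, n = 2 against 2). Both tests left out the pairing by culture, and at this number of cultures neither difference could pass a threshold of 0.05.

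Nearly every KCl peak was gained, and about as many unstimulated peaks were kept as were lost. Gained peaks numbered 28056 in biological sample 3, which is 97.1% of that KCl list, and 16041 in biological sample 4, which is 98.6% (mean 97.9% ± 1.03, SD, n = 2). The kept sites held 829 and 229 peaks of the KCl lists, against 838 and 322 peaks of the unstimulated lists. Lost peaks numbered 932 in biological sample 3, or 52.7% of the unstimulated list (Wilson 95% interval 50.3 to 55.0%), and 235 in biological sample 4, or 42.2% (38.2 to 46.3%). All such intervals cover counting error only and take peaks as independent, which neighbouring peaks need not be. Few peaks were near misses, since 4.61% and 2.55% of lost peaks lay within 500 bp of a KCl peak of their culture. These shares depend on list length: with each KCl list cut to as many best-scoring peaks as its unstimulated partner held, 87.2% and 94.1% of the KCl peaks were gained and 13.1% and 15.4% of the unstimulated peaks were kept.

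**Figure D1:**
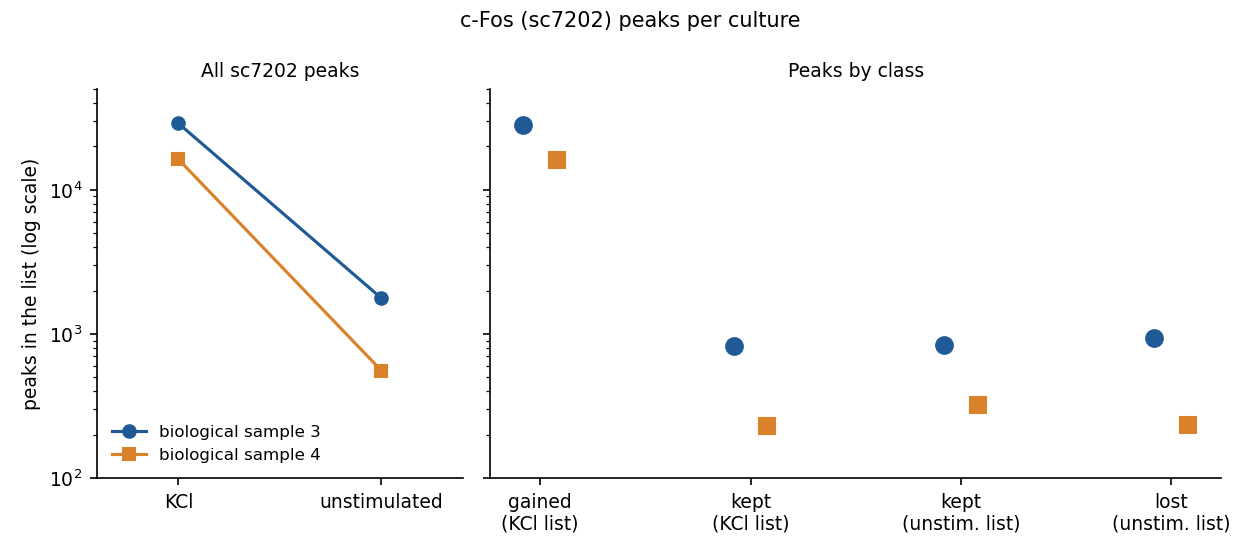
Number of sc7202 peaks per list on a log scale, for all peaks (left, lines join the libraries of one culture) and by class (right), with 1 point per culture. The KCl lists of 28885 and 16270 peaks stand above the unstimulated lists of 1770 and 557 peaks, and the gained peaks outnumber the kept and lost ones in both cultures.

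The gained sites recurred between cultures more often than the lost ones. Of the gained peaks of biological sample 3, 45.0% overlapped a gained peak of biological sample 4, and of those of biological sample 4, 78.4% overlapped one of biological sample 3. With gained lists of the same length the shares were 63.9% in each direction. Lost peaks overlapped a lost peak of the other culture in 6 of 932 cases in biological sample 3 (0.644%) and 6 of 235 in biological sample 4 (2.55%). Any unstimulated peak of the other culture was overlapped by 1.18% and 15.3% of lost peaks, against 13.8% and 58.9% of all unstimulated peaks. The lost lists were much shorter than the gained ones, and the 2 classes were not compared at equal length. Merged over the 4 lists, the peaks formed 33231 regions. Of these, 31261 (94.1%) held KCl peaks alone, 862 (2.59%) held peaks of both conditions and 1108 (3.33%) held unstimulated peaks alone. A KCl peak of both cultures and no unstimulated peak was found at 12527 regions, a peak in all 4 lists at 197, and an unstimulated peak of both cultures with no KCl peak at 6.

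Kept sites were strong and wide in their lists, gained sites filled the whole range and lost sites were weak and narrow. Each score is the authors' own, rises with the negative log10 of the MACS p-value, and was ranked only within its list, from 0 for the lowest to 100 for the highest percentile. In biological sample 3, the median percentile was 49.4 for gained peaks and 72.5 for kept peaks of the KCl list, against 73.1 for kept and 32.1 for lost peaks of the unstimulated list. In biological sample 4, these medians were 49.5 and 80.04 after KCl, against 70.6 and 25.3 without stimulation. Lost peaks thus lay near the calling limit of 50, with median scores of 56.8 in biological sample 3 and 56.9 in biological sample 4, and only 69 and 13 of them scored at least 100.

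The share of unstimulated peaks that were kept increased with their own score. In biological sample 3, the share kept was 16.7%, 28.1%, 54.6% and 89.9% over the 4 equal parts of the unstimulated list, from the lowest scores to the highest. In biological sample 4 the shares were 16.5%, 32.4%, 82.7% and 99.3%, so 1 of the 140 best-scoring unstimulated peaks had no KCl counterpart. That exception scored 3100, the highest score of its list, and lies on the mitochondrial sequence, a site singled out after its value was seen. In biological sample 3, 45 of the 444 best-scoring unstimulated peaks were lost. Most of the best-scoring peaks of silenced neurons were thus still listed after KCl.

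Peak widths followed the same order. Gained peaks had a median width of 654 bp in biological sample 3 and 731 bp in biological sample 4, and kept peaks of the KCl lists 848 bp and 925 bp, which is 194 bp more in each culture. Kept peaks of the unstimulated lists measured 619.5 bp and 285.5 bp, and lost peaks 410 bp and 133 bp. The unstimulated list of biological sample 4 had narrow peaks throughout, and its median width was 157 bp, while the KCl list of the same culture had 733 bp. A wide peak overlaps another list more easily than a narrow one, so width and class are not independent measures.

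**Figure D2:**
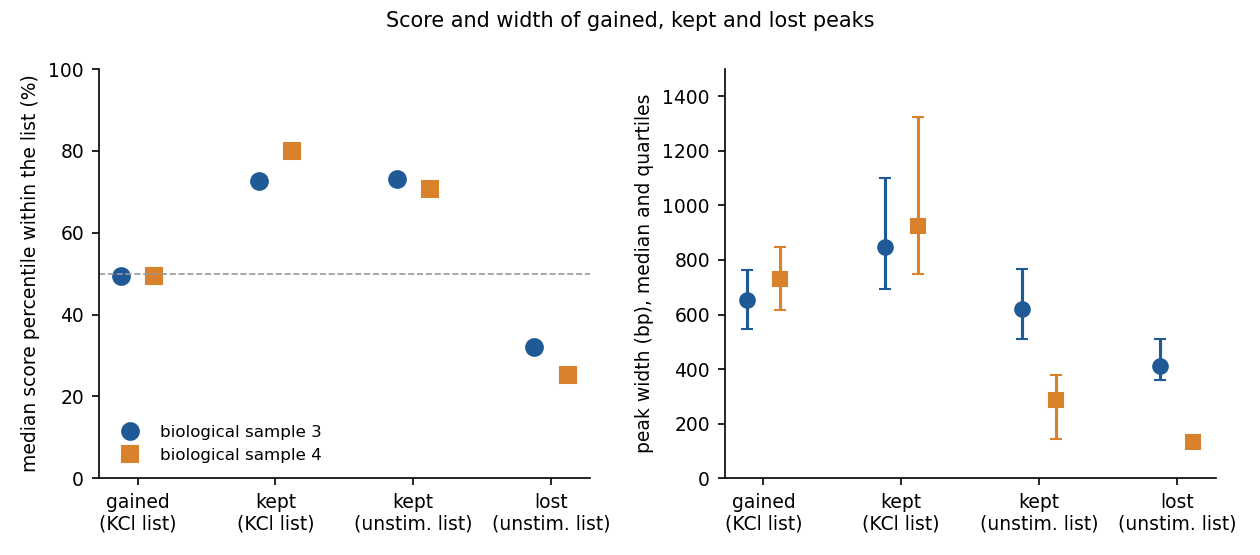
Median score percentile within each list (left, the dashed line marks the middle of a list) and peak width with median and quartiles (right) for gained, kept and lost sc7202 peaks, 1 point per culture. Kept peaks lie at the 70.6 to 80.04 percentile of their lists, and lost peaks at the 25.3 to 32.1.

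Of the 5 best-ranked gained sites, 4 lay outside H3K27ac peaks, a context shared by 65.0% and 68.2% of all gained peaks of biological samples 3 and 4. By a rule of score rank, 5 of the 12624 gained peaks of biological sample 3 that were also gained in biological sample 4 are named, here and further on with the coordinates of biological sample 3. The peak at chr13:58755086-58756792 scored 3100 in both KCl lists, a value that recurs as the highest one in many lists, and was 1707 bp wide in biological sample 3. It shared the first place with chr17:66310461-66311891, which also scored 3100 in both. The peak at chr13:45718774-45719938 scored 3100 in biological sample 3 and 2709.82 in biological sample 4, and that at chr15:95106674-95107691 scored 3100 and 2248.47. These 4 sites were outside the H3K27ac peaks of both conditions. The last of the 5, chr6:70821825-70823038, scored 2238.3 and 1266.46 and lay in a distal H3K27ac peak after KCl and in none without stimulation. All 5 were found in 4 of 4 KCl sc52 lists, both KCl FosB lists and the JunB list made after KCl. Such presence was frequent among strong gained peaks. In the highest of 4 equal parts by score, 94.5% and 69.9% were in the KCl sc52 list of their culture (biological samples 3 and 4). FosB of the same culture held 57.4% and 48.9% of that part, and JunB 84.4% and 95.9%. None of the 5 named sites was in any of the 5 unstimulated sc52, FosB and JunB lists. Such absence was usual, since these lists held 1.49 to 4.01% of all gained peaks. Under c-Fos shRNA, the first 2 were in both sc52 lists and the other 3 in 1 of the 2.

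Gained peaks lay mostly outside H3K27ac peaks, like the KCl lists as a whole, and kept peaks mostly inside them. Neither avoidance nor preference is read from the shares, because the part of the genome inside H3K27ac peaks was not computed. Each peak was placed by the H3K27ac list of its own condition: in a non-distal H3K27ac peak (one of the whole-genome list that the authors' distal list does not hold), in a distal one, or outside. The labels do not say how distal peaks were defined. Of the gained peaks, 65.0% in biological sample 3 and 68.2% in biological sample 4 were outside H3K27ac, 20.9% and 23.9% were in distal peaks, and 14.1% and 7.95% in non-distal ones. All KCl peaks, nearly all of them gained, were outside in 63.8% and 67.7% of cases. Kept peaks of the KCl lists were outside in 21.4% and 35.4% of cases, distal in 18.8% and 39.7%, and non-distal in 59.8% and 24.9%. The cultures thus shared the higher share inside H3K27ac but differed in which kind of H3K27ac peak held most of the kept sites.

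Lost peaks differed from kept peaks of the same unstimulated lists. They were outside H3K27ac in 59.8% (Wilson 95% interval 56.6 to 62.9%) and 85.5% (80.5 to 89.5%) of cases in biological samples 3 and 4, against 24.3% (21.6 to 27.4%) and 46.0% (40.6 to 51.4%) of the kept unstimulated peaks. Non-distal H3K27ac peaks held 27.5% and 6.81% of lost peaks, against 58.7% and 18.3% of kept ones. The intervals of lost and kept peaks did not overlap in either culture for these contexts. They take each peak as independent, which makes them too narrow where peaks cluster. A neighbour of the same class within 10 kb was found for 24.5% and 68.6% of kept unstimulated peaks, against 6.44% and 16.6% of lost ones. In distal H3K27ac peaks, the shares were 12.8% (10.8 to 15.1%) and 7.66% (4.90 to 11.8%) of lost peaks, against 16.9% (14.6 to 19.6%) and 35.7% (30.7 to 41.1%) of kept ones, and the intervals overlapped in biological sample 3. Lost peaks were also weaker and narrower than kept ones, and the classes were not matched for either. Of the 69 and 13 lost peaks that scored at least 100, 52.2% and 53.8% were outside H3K27ac. That share was not computed for kept unstimulated peaks of such scores.

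**Figure D3:**
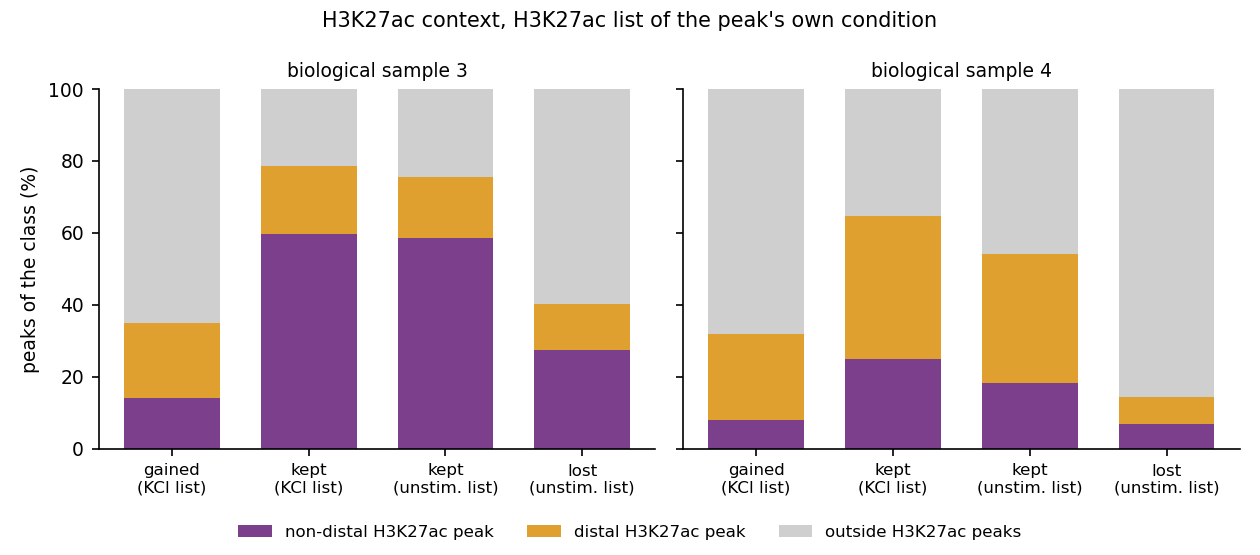
Share of gained, kept and lost sc7202 peaks in non-distal H3K27ac peaks, in distal H3K27ac peaks and outside them, by the H3K27ac list of the peak's own condition, 1 panel per culture. The share outside H3K27ac is 65.0% and 68.2% for gained peaks, against 21.4% and 35.4% for kept peaks of the KCl lists.

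Distal H3K27ac peaks that were called after KCl alone held a gained c-Fos peak most often. Of all 18556 distal KCl H3K27ac peaks, 28.5% held a gained peak of biological sample 3 and 19.6% one of biological sample 4. The 4824 peaks called after KCl alone did so in 34.6% (33.2 to 35.9%) and 27.5% (26.2 to 28.8%) of cases, above that background. The 13732 KCl peaks that overlapped an unstimulated H3K27ac peak did so in 26.4% (25.7 to 27.2%) and 16.8% (16.2 to 17.5%), although they were wider, with a median of 2393 bp against 1837 bp. The 5872 distal peaks called without stimulation alone held a gained c-Fos peak in 11.9% and 6.51% of cases, at a median width of 1774 bp. The order was the same in both cultures. Non-distal KCl H3K27ac peaks, with a median of 2739 bp, held a gained peak in 31.9% of cases in biological sample 3 and 10.9% in biological sample 4, so their place in the order differed between cultures.

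Stronger gained peaks were more often in distal H3K27ac and less often in non-distal H3K27ac. Over the 4 equal parts of the gained peaks of biological sample 3 by score, from low to high, 14.6%, 16.6%, 20.4% and 31.7% lay in distal KCl H3K27ac peaks. In biological sample 4 the shares were 17.4%, 19.7%, 24.2% and 34.2%. In non-distal peaks, the lowest and the highest part held 15.6% and 11.3% in biological sample 3 and 9.43% and 6.81% in biological sample 4. Most gained peaks of the highest part were nonetheless outside distal H3K27ac.

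The authors' enhancer classes gave the gained peaks a clear order, with enhancers of increasing H3K27ac first. The classes were drawn by the authors from 11830 distal sites with CBP and H3K4me1, and 4 lists give 1468 sites with increasing, 1886 with no, 800 with constant and 738 with decreasing H3K27ac. The sources used here do not say how these were defined. Over all 11830 sites, 47.6% lay inside a gained peak in biological sample 3 and 33% in biological sample 4. Of the increasing enhancers, 1008 (68.7%, 66.2 to 71.0%) and 809 (55.1%, 52.6 to 57.6%) did so in biological samples 3 and 4. The share was 47.2% and 32.1% for enhancers with no H3K27ac, 37.75% and 24.25% for constant ones and 32.4% and 18.6% for decreasing ones. The 6938 sites in none of the 4 classes were close to the background, at 46.1% and 31.1%.

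The differences between classes were nearly the same in the cultures although the levels were not. Increasing minus decreasing enhancers gave 36.3 percentage points in biological sample 3 and 36.5 in biological sample 4 (mean 36.4 ± 0.188, SD, n = 2). Increasing minus constant enhancers gave 30.9 in each (mean 30.9 ± 0.0395), and increasing minus those with no H3K27ac gave 21.4 and 23.03 (mean 22.2 ± 1.14). Each difference exceeded the spread between cultures. With 2 cultures no test could pass a threshold of 0.05.

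Silenced neurons had almost no sc7202 peaks at these enhancers. Unstimulated peaks covered 3 of 1468 increasing enhancers in biological sample 3 (0.204%) and 0 of 1468 in biological sample 4. That count of 0 allows up to 0.204% when 3 counts are taken as its limit, and 0.261% as the upper Wilson bound. Over all 11830 sites they covered 45 (0.380%) and 3 (0.0254%). Lost peaks covered 16 (0.135%) and 2 (0.0169%) of all 11830 sites in biological samples 3 and 4. They covered none of the increasing or decreasing enhancers in either culture, and 4 constant ones in biological sample 3. Enhancers with no H3K27ac were covered by them in 3 and 1 cases. With so low a share over all sites, nothing is read from the classes with no such peak. Kept peaks of the KCl lists covered 34 and 4 of all 11830 sites. The KCl peaks at enhancers were thus gained ones with few exceptions, as were the KCl lists as a whole (97.1% and 98.6% gained).

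**Figure D4:**
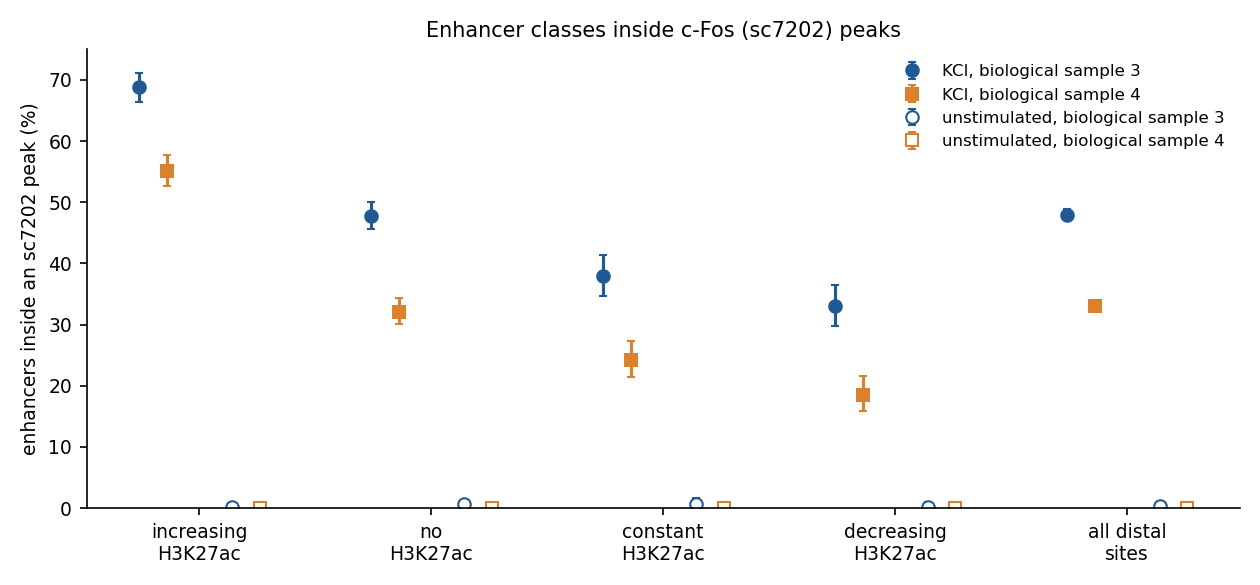
Share of the authors' enhancers inside an sc7202 peak after KCl (filled) and without stimulation (open), by H3K27ac class and culture, with Wilson 95% intervals. After KCl, 68.9% and 55.2% of increasing enhancers are inside a peak, against 0.204% and 0% without stimulation.

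Increasing enhancers also carried the stronger gained peaks. The gained peaks that held an increasing enhancer had a median score percentile of 81.5 in biological sample 3 and 73.4 in biological sample 4. The medians were 65.5 and 55.6 at enhancers with no H3K27ac, 66.7 and 63.3 at constant ones and 55.8 and 52.7 at decreasing ones, so increasing enhancers ranked first in both cultures. The peak centre lay close to the enhancer position in every class, with median distances of 48 to 68 bp.

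Binding was shared by the cultures at 756 increasing enhancers, or 51.5% of the class, against 30% of all 11830 sites. The shares of the other classes were 28.5% with no H3K27ac, 22% for constant and 15.99% for decreasing enhancers. JunB was listed after KCl at 86.9% of these 756 enhancers, and sc52 c-Fos at 85.3% and 50.9% in biological samples 3 and 4. Other classes with a gained peak in both cultures were close for JunB, at 84.9% (no H3K27ac), 81.25% (constant) and 87.3% (decreasing). Their sc52 shares were 82.9%, 84.1% and 80.5% in biological sample 3, and 39.8%, 40.3% and 35.6% in biological sample 4. At 407 increasing enhancers (27.7%), neither culture had a gained sc7202 peak. JunB was listed at 15.0% of these and sc52 c-Fos at 7.13% and 0.737%, so most of them had no peak of these lists either. For the other classes, the JunB share at such sites was 16.5% (no H3K27ac), 9.38% (constant) and 12.3% (decreasing).

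The 5 increasing enhancers with the best-ranked gained peaks lay on chromosomes 6, 3, 11, 15 and 13. The first is inside chr6:70821825-70823038, described above. The second is inside chr3:50998911-50999949, which scored 1858.39 in biological sample 3 and 968.47 in biological sample 4. The third is inside chr11:19734912-19735965, which scored 1794.33 and 929.73. The peaks chr15:37537010-37537992 and chr13:9238571-9239691 scored 1692.78 and 852.55, and 1526.36 and 857.72. At all 5, a distal H3K27ac peak was called after KCl and none without stimulation. The 5 come from a class named for increasing H3K27ac, and the share of the whole class with this pattern was not counted. Nothing is therefore read from the pattern at these 5. The KCl H3K27ac peaks themselves had scores of 94.85 to 418.61, modest beside the c-Fos scores at the same places, though scores of different lists are not on 1 scale. The sites were not assigned to genes, because no mm9 annotation was used here.

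The other AP-1 lists separated gained from kept peaks. JunB, one of the Jun partners of c-Fos, had 1 KCl library, from biological sample 4. It overlapped 45.8% and 66.9% of the gained peaks of biological samples 3 and 4, against 16.6% and 28.4% of the kept peaks of the KCl lists. FosB, a paralogue of c-Fos, overlapped 23.8% and 20.2% of gained peaks in the same culture, against 49.1% and 27.9% of kept ones. The sc52 antibody overlapped 55.7% and 30.2% of gained peaks, against 83.5% and 36.7% of kept ones. Over all peaks, JunB was thus listed more often at gained sites and sc52 and FosB more often at kept sites, with the sc52 intervals of biological sample 4 (29.5 to 31.0% and 30.7 to 43.1%) overlapping.

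Overlap with AP-1 rose steeply with the score of a gained peak. Over the 4 equal parts by score, from low to high, the JunB share was 19.1%, 30.2%, 49.4% and 84.4% in biological sample 3, and 39.8%, 55.2%, 76.6% and 95.9% in biological sample 4. The share with a KCl sc7202 peak in the other culture was 16.2% in the lowest part and 87.7% in the highest in biological sample 3, and 59.9% and 97.4% in biological sample 4. The sc52 shares of the lowest and highest parts were 24.9% and 94.5%, and 8.20% and 69.9%. Low-scoring gained peaks were thus found again less often by any of these measures.

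Gained peaks were found far less often in the sc52 lists made under c-Fos shRNA than in those made with control shRNA. These lists come from KCl-treated cultures of biological samples 5 and 6, which took no part in the sc7202 calls. The c-Fos shRNA lists held 7808 and 1793 peaks, and their control shRNA partners 23578 and 19131. Gained peaks of biological sample 3 were found in 11.5% of cases under c-Fos shRNA, against 57.9% with control shRNA, in biological sample 5, and in 1.93% against 46.3% in biological sample 6. Gained peaks of biological sample 4 were found in 10.7% against 66.5%, and in 1.48% against 65.0%. Every pair had the lower share under c-Fos shRNA.

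For kept peaks of the KCl lists the shares under c-Fos shRNA and control shRNA were close, although both were low in biological sample 6. Kept peaks of biological sample 3 were found in 69.7% (66.5 to 72.8%) against 71.9% (68.7 to 74.8%) in biological sample 5, and in 37.2% against 38.0% in biological sample 6. Kept peaks of biological sample 4 were found in 78.6% (72.8 to 83.4%) against 72.5% (66.4 to 77.9%), and in 31.4% against 37.6%. The intervals overlapped in all 4 pairs, which does not show that the shares are equal. With scores of at least 100 in both lists, the gained peaks of biological samples 3 and 4 were found in 5.63% and 5.70% of cases under c-Fos shRNA in biological sample 5, and the kept ones in 52.8% and 62.8%.

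**Figure D5:**
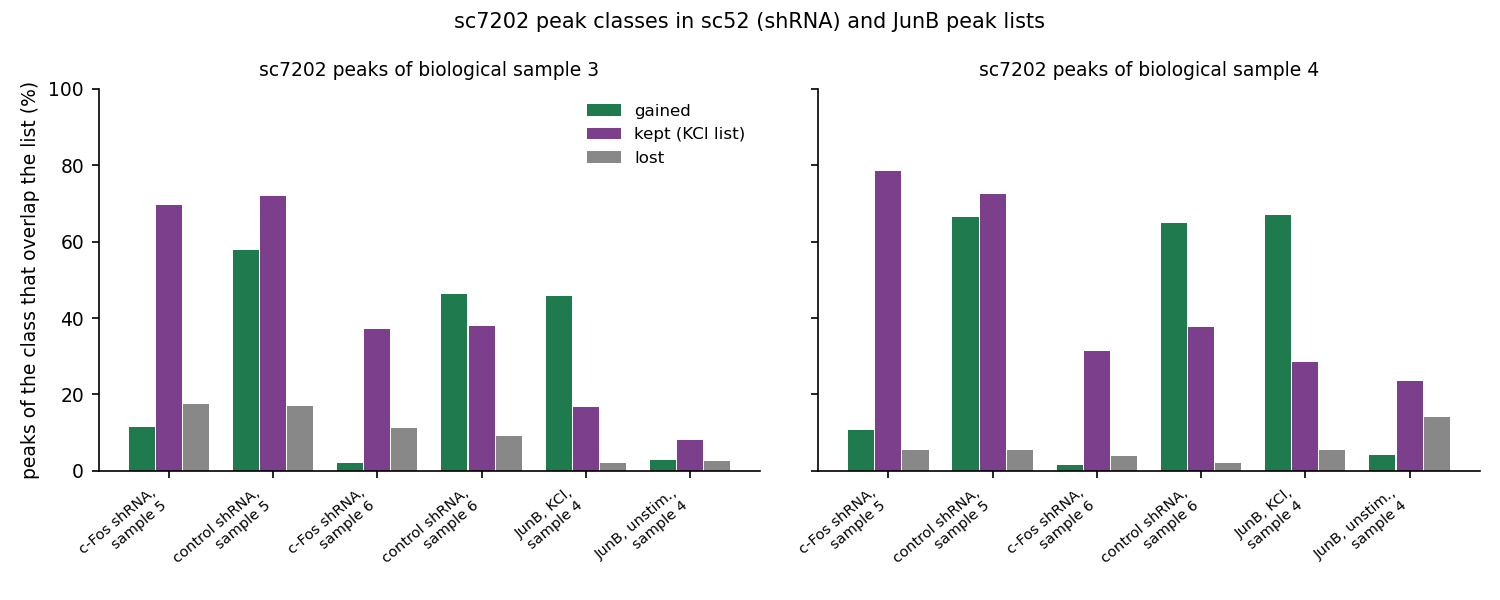
Share of gained, kept and lost sc7202 peaks that overlap the KCl sc52 lists with c-Fos shRNA and control shRNA and the JunB lists, 1 panel per sc7202 culture. Gained peaks are at 1.48 to 11.5% under c-Fos shRNA and 46.3 to 66.5% with control shRNA, while kept peaks of the KCl lists are at 31.4 to 78.6% and 37.6 to 72.5%.

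Among gained peaks, those in non-distal H3K27ac had the highest shares under c-Fos shRNA. In biological sample 5, the c-Fos shRNA list held 47.0% and 48.4% of the gained peaks of biological samples 3 and 4 that lay in non-distal H3K27ac of either condition. It held 9.75% and 11.9% of those in distal H3K27ac called after KCl alone, and 3.11% and 4.31% of those outside H3K27ac in both conditions. The control shRNA list of biological sample 5 held 66.0% and 81.9% of the non-distal gained peaks. In biological sample 6, their shares were 10.3% and 10.2% under c-Fos shRNA, against 20.6% and 42.3% with control shRNA. JunB was listed at 19.4% and 46.9% of the non-distal gained peaks, against 66.0% and 79.7% of those in distal H3K27ac called after KCl alone. Gained peaks in non-distal H3K27ac thus came closer to the kept peaks in these lists than the other gained peaks did. Their share was still lower under c-Fos shRNA than with control shRNA in every pair. JunB was also found at them more often than at the kept non-distal peaks (8.47% and 8.77%).

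The authors' combined list of 12594 c-Fos sites, which the labels attach to the KCl sc52 libraries, lay mostly in gained sc7202 peaks. Since gained peaks made up 97.1% and 98.6% of the KCl lists, this alone does not set them apart from kept peaks. Gained peaks of biological sample 3 held 11004 of these sites (87.4%) and those of biological sample 4 held 8513 (67.6%). Kept peaks of the KCl lists held 31 and 5, and lost peaks 2 and 0. Of the kept KCl peaks, 3.74% and 2.18% held such a site, against 39.2% and 53.1% of gained peaks. The sources used here do not state the rule behind the combined list, so these shares may be set by that rule.

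A few places of the genome held many of the unstimulated peaks, most of all in biological sample 4. Windows of 1 Mb with at least 10 unstimulated sc7202 peaks in either list numbered 14. They held 1.11% and 1.08% of all KCl peaks of biological samples 3 and 4, against 11.98% and 36.1% of all unstimulated peaks. Since the windows were chosen by unstimulated peaks, and kept peaks overlap such peaks by definition, nothing is read from this difference. A neighbour of the same class within 10 kb was found for 33.6% of gained and 23.2% of kept KCl peaks in biological sample 3, and for 22.4% of gained and 47.2% of kept ones in biological sample 4. The stretch at 21 to 24 Mb of chromosome 13 held 98 and 59 KCl peaks and 89 and 68 unstimulated peaks, of which 83 and 55 were kept. A large cluster of histone and transfer RNA genes is known on mouse chromosome 13, but the peaks were not assigned to genes here. In the same stretch the unstimulated sc52 lists held 80 and 24 peaks, the unstimulated FosB lists 18 and 0 and the unstimulated JunB list 2. The window at 3 to 4 Mb of chromosome 9 held 18 and 16 KCl peaks and 23 and 51 unstimulated ones. Sequence and input DNA were not analysed in the 14 windows. Outside the 14 windows, 43.6% and 46.3% of unstimulated peaks were kept, so the cultures were closer to each other than with all places (47.3% and 57.8%).

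The best-ranked sites with a peak in all 4 lists were wide and were listed under c-Fos shRNA as well. The first, at chr17:39979587-39985878, was 6292 bp wide and scored 3100 and 1964.42 after KCl, against 3100 and 1239.38 without stimulation (biological samples 3 and 4). The second, chr2:98506293-98507600, scored 1801.05 and 2351.31 after KCl, against 2690.78 and 2983.89 without stimulation. Both were outside H3K27ac and were listed in 2 of 2 c-Fos shRNA lists and by every unstimulated AP-1 list of the other antibodies. The third, chr5:31190112-31191774, lay in a non-distal H3K27ac peak of both conditions and scored 2995.18 and 462.18 after KCl, against 3100 and 881.63. The last 2, chr11:68853478-68855649 and chr11:68850051-68851890, lay in 1 distal H3K27ac peak present in both conditions. None of the 5 held a combined c-Fos site or an enhancer of the 4 classes, and all were listed under c-Fos shRNA in both cultures. Sequence and input DNA were not analysed at these sites, so whether their peaks reflect bound c-Fos was not tested.

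The lower JunB share of kept peaks was seen inside H3K27ac and was small or absent outside it. JunB was listed at 40.1% and 66.7% of the kept KCl peaks outside H3K27ac in biological samples 3 and 4, against 16.03% and 6.59% of those in distal and 8.47% and 8.77% of those in non-distal H3K27ac peaks. Of the gained peaks outside H3K27ac in both conditions, 46.9% and 65.6% overlapped JunB. The kept groups held 177 and 81, 156 and 91, and 496 and 57 peaks. The c-Fos shRNA list of biological sample 5 held 46.9% and 58.0% of the outside group, and 78.6% and 94.7% of the non-distal group.

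Lost peaks were found in other lists less often than kept ones, and at most in 19.6% of cases in any list compared. The unstimulated sc52 list of the same culture held 15.2% of the lost peaks of biological sample 3 and 7.23% of those of biological sample 4, against 64.1% and 34.2% of the kept unstimulated peaks. The KCl sc52 list of the same culture held 19.6% and 4.68% of lost peaks, against 82.7% and 42.9% of the kept unstimulated peaks. The KCl sc7202 list of the other culture held 1.82% and 15.3%, and the KCl JunB list 2.15% and 5.53%. Under c-Fos shRNA and control shRNA in biological sample 5, the sc52 lists held 17.5% and 16.95% of the lost peaks of biological sample 3. In biological sample 4, 9.36% of lost peaks were not on chromosomes 1 to 19, X or Y, against 0.0810% of the gained ones. Only 6 sites were listed without stimulation in both cultures and by neither KCl list, 1 of them on an unplaced sequence. The best-ranked of the other 5, at chr2:181651988-181652949, scored 116.19 in biological sample 3 and 73.49 in biological sample 4, and was listed in 2 of the 4 KCl sc52 lists. The second, at chr11:3049416-3051824, scored 195.87 and 58.15. All 5 lay outside H3K27ac in both conditions. Their scores ran from 59.95 to 195.87 in biological sample 3, where those of the first 2 were at the 75.2 and 83.1 percentile, and from 53.51 to 91.1 in biological sample 4.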

How the data were processed

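Peak lists were analysed as the authors deposited them, 1 list per AP-1 library. Per the submitters' processing notes, the aligner was BWA (no version given) and the build mm9. Peak names in the deposited files begin with MACS, whose version and control library the sources used here do not state. The score column deposited by the authors has its lowest value at 50, which stands for a p-value of 1e-05. The H3K27ac lists merge biological samples 1 and 2, per the labels, and the whole-genome list holds all distal peaks at identical coordinates. Enhancer and combined c-Fos lists give single positions.

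Overlap meant at least 1 bp, within a culture. Lists were paired by the biological sample number of the labels, and number 3 had the longer list in 6 of 6 groups. Shares carry Wilson 95% intervals. Only differences in log2 peak number were tested, by exact permutation and, for KCl against unstimulated sc7202, also by an exact sign-flip test. An increase in list length cannot be separated from depth. Sites on chromosomes 1 to 19, X and Y were named by score percentile averaged over lists, 5 per rule: gained in both cultures, peak in all 4 lists, unstimulated in both cultures without KCl, and increasing enhancers in gained peaks. The comparisons, lists and members were chosen with earlier results of these data known, and the 1 Mb windows were chosen after the peaks were seen. The overlap step was tested on simulated peaks. Motifs, genes, sequences and input DNA were not analysed here. Python 3.11.15, numpy 2.4.6, scipy 1.17.1 and matplotlib 3.10.9 were used.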

Additional observations from a re-analysis of the deposited data

How the results depend on the processing

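Among 21 results, the differences in peak number, score percentile, width and enhancer share kept their sign under every alternative tried. The other results were shares, which cannot change sign. With 2 cultures, the value without either one lies within 1 SD of the mean by construction, so it says nothing about stability. The log2 difference in peak number was 4.03 and 4.87 in the single cultures, 4.61 with scores of at least 100, 4.51 on autosomes, 4.58 with peaks within 500 bp merged and 4.77 outside non-distal H3K27ac, each with an exact permutation p of 0.333 where both cultures entered. All means below are over the 2 cultures. The share of unstimulated peaks kept was 52.6%, and it moved to 36.7% with centres within 200 bp, 75.4% with scores of at least 100 in both lists, 14.3% with the KCl list cut to the length of its partner, and 45.0% without the dense windows, an alternative chosen after seeing the data. Without the replicate block, with the partner list of the other culture, it was 39.6%, made of 20.2% for biological sample 3 and 59.1% for biological sample 4. The share of KCl peaks gained moved with the shortened KCl list, to 90.6%. With scores of at least 100, the excess width of kept over gained peaks was 164.5 bp, gained peaks outside H3K27ac 60.7%, gained peaks in distal H3K27ac 29.6%, lost peaks outside H3K27ac 53.0%, increasing enhancers in a gained peak 42.3%, and gained peaks shared between cultures 40.0% and 83.8%. In both lists, that score gave 18.04% of gained peaks in FosB, 5.67% of gained and 57.8% of kept peaks in the c-Fos shRNA list of biological sample 5. Gained lists of the same length shared 63.9% in each direction. The increasing minus decreasing difference was 31.6 points with peak centres within 200 bp of the enhancer, 37.7 with peaks within 500 bp and 30.7 with scores of at least 100. Increasing minus constant was 28.5 with centres within 200 bp, 24.99 with scores of at least 100 and 30.6 with lists of the same length, and increasing minus no H3K27ac was 16.5 with centres within 200 bp and 23.9 within 500 bp. The cause of these moves was not tested.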
